A study of Mus musculus with 5 samples.

Results

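Penk, the gene of the opioid peptide precursor proenkephalin, was followed through single-cell RNA-seq libraries of 4T1 mammary tumors. It is 1 of the 32285 genes in the feature list of the T cell libraries and 1 of the 54987 in that of the whole-tumor libraries, and it was chosen by its measured counts, which were uneven between cell types in these same libraries, so its levels are given as a description without a test. Its molecules were counted per cell by lineage gate and by library, and Penk-positive cells, those with at least 1 unique molecular identifier (UMI, the tag of 1 captured mRNA molecule) of Penk, were then compared with Penk-negative cells of the same gate. Penk, ENSMUSG00000045573, lies on the minus strand of chromosome 4 at chr4:4133531-4138819 in mouse build GRCm38, with 2 annotated transcripts, Penk-201 with 2 exons and Penk-202 with 3.

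Proenkephalin is made as a long precursor that proprotein convertases and carboxypeptidases cut into short peptides, chiefly Met-enkephalin and Leu-enkephalin. These peptides act mainly on the delta and mu opioid receptors and are broken down outside the cell by peptidases such as neprilysin. Neurons and adrenal chromaffin cells are the classic sources, and activated T cells, above all CD4 helper cells, and some fibroblasts are known to transcribe the gene as well.

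All tumors grew from 4T1-Thy1.1, here called 4T1, a triple negative mammary carcinoma line of BALB/c origin, in the mammary fat pad of female BALB/c mice that the labels give as 12 weeks old. The sensitive and the resistant T cell library each came from tumors given doxorubicin (DOX) intravenously at 5 mg/kg, in 3 doses 3 days apart. Sensitive tumors responded to the drug and resistant tumors went on growing. Each T cell library pooled 3 tumors after magnetic depletion of non-T cells and, through the Thy1.1 (CD90.1) mark they carry, of cancer cells. A further 3 libraries held unsorted tumor cells labelled as saline control, DOX sensitive and DOX resistant. The resistant-labelled one is named sensitive in another of its label fields, so it is called by its title here. With 1 library per group there is no replicate error, no test between groups was possible, and every interval below is a 95% interval that covers counting error only.

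The sensitive T cell library held 3949 barcodes and 31690845 UMIs, and the resistant one 6116 barcodes and 35908799 UMIs. After filters on genes detected, mitochondrial share and putative doublets, 3448 and 3091 cells remained, with a median of 4901 and 5610 UMIs. The libraries differed before filtering: the median mitochondrial share of a barcode was 2.47% for sensitive and 8.95% for resistant barcodes. The 2 libraries had 31 barcode sequences in common. Despite the depletion, both kept fibroblasts, myeloid cells and cancer cells beside the T cells, so Penk could be read across lineages. A cell was assigned to a lineage by how many of 8 marker genes it expressed, and T cells, which had a UMI of Cd3d, Cd3e or Cd3g, were split by UMIs of Cd4, Cd8a and Cd8b1. In the sensitive library Penk-negative and Penk-positive CD4 cells carried a mean of 6.27 and 7.18 of the 8 T or NK cell markers.

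The Penk UMIs of the T cell libraries were spread differently over cell types. Among all kept cells, a Penk UMI was found in 8.59% of the sensitive library (296 of 3448) and in 8.61% of the resistant one (266 of 3091). With each cell thinned to 1000 UMIs these were 4.11% and 2.59%, a ratio of 1.58 (interval 1.21 to 2.08). The sensitive library held 5587 Penk UMIs and the resistant library 2416, so the level in CPM (counts per 1000000 UMIs of the same cells) was 2.15 times as high in the sensitive library (interval 2.05 to 2.25). For scale, 4.26% of 15100 genes were at least 2-fold higher in the sensitive library. In the sensitive library CD4 T cells held 38.8% of all Penk UMIs, cells with both Cd4 and Cd8 UMIs 37.7% and fibroblasts 11.6%. The resistant library had 11.7% in CD4 T cells, 42.1% in cells with both and 35.4% in fibroblasts. With Cd3 and Cd4 called at 2 UMIs, CD4 T cells held 34.1% of the sensitive and 0.911% of the resistant Penk UMIs. A library's total therefore mixed lineages, and the gates are described in turn.

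**Figure D1:**
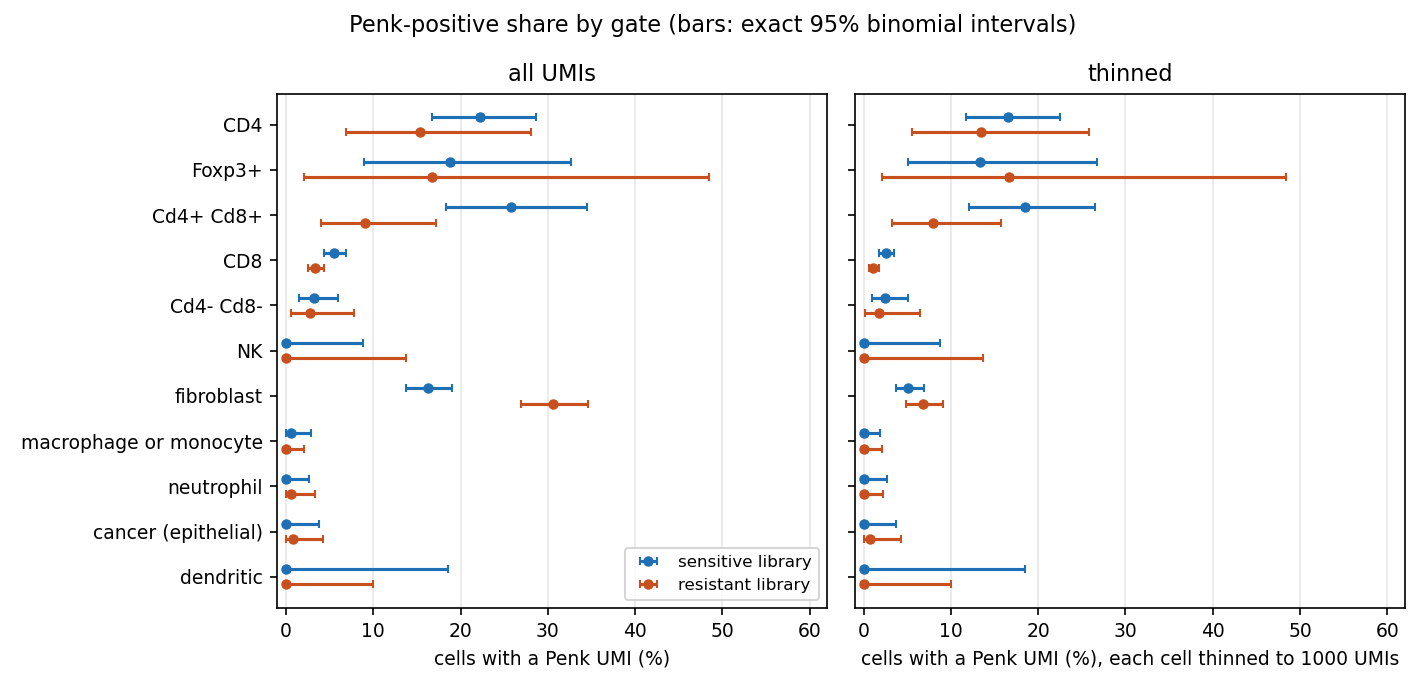
Percentage of cells with at least 1 Penk UMI (x axes) in each gate (y axis) of the sensitive and resistant T cell libraries, from all UMIs on the left and from cells thinned to 1000 UMIs on the right, with exact binomial 95% intervals as bars. Fibroblasts drop from 16.2% and 30.6% to 5.11% and 6.76% on thinning, CD4 cells from 22.3% and 15.4% to 16.6% and 13.5%, and the myeloid, cancer and NK gates are at or near 0 in both panels.

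CD4 T cells had the highest Penk level of all gates in the sensitive library. Penk was detected in 45 of 202 sensitive CD4 cells (22.3%, interval 16.7 to 28.7) and in 8 of 52 resistant CD4 cells (15.4%, interval 6.88 to 28.1). Thinning, which removes differences in depth, gave 33 of 199 cells (16.6%) and 7 of 52 cells (13.5%). The intervals overlapped over most of their length, and a difference in the share of Penk-positive CD4 cells was not detectable with 52 cells in the resistant library. The ratio of the thinned shares, 1.23, became 2.37 when Cd3 and Cd4 were called at 2 UMIs, with 22.6% of 115 and 2 of 21 cells positive. The summed level was 1936 CPM (interval 1855 to 2019) in sensitive and 1433 CPM (interval 1271 to 1611) in resistant CD4 cells, a ratio of 1.35 (interval 1.19 to 1.53). Of 6234 genes, 10.8% were at least 2-fold higher in sensitive CD4 cells, and 28.8% had a ratio at or above that of Penk. The ratio also moved between 1.14 and 10.0 with the processing choices given in the closing section, so no order between the libraries is read from it.

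The CD4 level rested on a few cells with very many Penk molecules. Among the 45 positive sensitive cells, the UMIs per cell ran from 1 to 446 with a median of 19 and a mean of 48.2. Of these cells, 9 had 1 UMI, 8 had 2 to 9, 22 had 10 to 99 and 6 had 100 or more, and those 6 held 61.1% of the gate's Penk UMIs. The 8 positive resistant cells ran up to 117 UMIs with a median of 12, and their highest cell held 41.5% of the UMIs. In the sensitive CD4 cell with most Penk, 446 of 16904 UMIs (2.64%) were Penk, more than for any other gene in that cell by 3′ counts, which do not scale with gene length. The same cell had 8 Cd4, 0 Cd8 and 73 Cd3 UMIs, 92 UMIs of the type 2 cytokine gene Il13, and 0 UMIs of the collagen genes Col1a1, Col1a2 and Col3a1. Most genes of a like level were spread far more evenly: the 31 genes within 1.25-fold of Penk's level in sensitive CD4 cells were detected in a median of 97.0% of the cells, against 22.3% for Penk. Among these 31 genes, the one detected in no more cells than Penk was Ighv11-2, an immunoglobulin segment. In resistant CD4 cells the matched genes were detected in a median of 92.3% of cells, and there the exception was Il13.

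**Figure D2:**
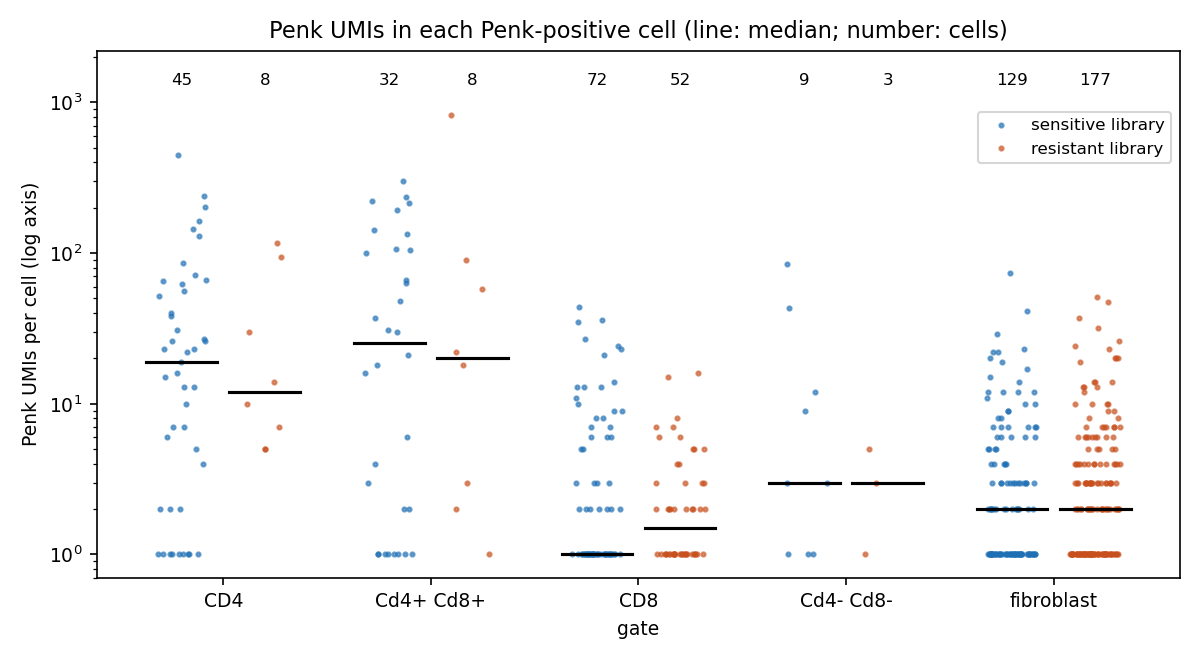
Penk UMIs per Penk-positive cell (log-scaled axis) by gate in the sensitive and resistant T cell libraries; each point is 1 cell, the bar is the median and the number on top counts the cells. CD4 cells reach 446 UMIs and Cd4+ Cd8+ cells 824, while fibroblasts stay at or below 74 and CD8 cells at or below 44.

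Penk was found in CD4 cells with and without Foxp3, the transcription factor of regulatory T cells. In the sensitive library 40 of 180 Foxp3-negative CD4 cells (22.2%) and 5 of 22 Foxp3-positive CD4 cells had Penk, at 2087 and 776 CPM. The resistant values were 7 of 45 cells (15.6%) at 1643 CPM, and 1 of 7 cells, with 5 UMIs. Among Foxp3-positive T cells, here those with a Foxp3 UMI and no Cd8 UMI, 9 of 48 sensitive cells (18.8%, interval 8.95 to 32.6) carried 232 Penk UMIs. Of the resistant cells 2 of 12 carried 6. The level in Foxp3-positive T cells was 7.49 times as high in the sensitive library (interval 3.39 to 20.6), a value that rests on these 9 and 2 positive cells and was 27.9 without the top cell of each library. Of 2166 genes, 16.6% were at least 2-fold higher in sensitive Foxp3-positive T cells, and at 1000 UMIs per cell 6 of 45 sensitive and 2 of 12 resistant cells had Penk. Cells with Foxp3 and both Cd4 and Cd8 UMIs lie outside this gate. Penk was found in 6 of 20 such sensitive cells, with 193 UMIs, and in 0 of 7 resistant ones.

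Cells with UMIs of both Cd4 and a Cd8 gene had Penk at a level like that of CD4 cells. In the sensitive library 32 of 124 such cells (25.8%, interval 18.4 to 34.4) were positive, at a median of 25.5 UMIs and a summed level of 1722 CPM. Of the resistant cells 8 of 88 (9.09%, interval 4.01 to 17.1) were positive at 1576 CPM, but 1 cell held 824 of the 1018 Penk UMIs, 34.1% of all Penk UMIs in that library. This cell had 22 Cd8 UMIs, 1 Cd4 UMI, 51 Cd3 UMIs, 108 UMIs of the decoy receptor gene Il1r2 and 1 collagen UMI. The ratio between libraries was 1.09 with that cell and 4.83 when the top cell of each library was left out. Of the 32 sensitive positive cells, 12 had more Cd4 than Cd8 UMIs and these held 1566 of the 2108 Penk UMIs, whereas 10 of the 92 Penk-negative cells had more Cd4 than Cd8. In the resistant library 1 of the 8 positive and 1 of the 80 negative cells had more Cd4 than Cd8. More Cd8 than Cd4 was found in 20 of the 32 sensitive positive cells, which held 542 Penk UMIs. In the resistant library it was found in 7 of the 8 positive cells. Those 7 held 1015 of the 1018 Penk UMIs, 824 of them in the 1 cell above. Cells with both were deeper than CD4 cells, with a median of 8608 against 4036 UMIs in the sensitive library and 6401 against 2947 in the resistant one. Droplets with a CD4 and a CD8 cell and single T cells with both transcripts cannot be told apart here.

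CD8 T cells, the largest gate, had a lower share of positive cells and a much lower level. Penk was seen in 72 of 1317 sensitive CD8 cells (5.47%, interval 4.30 to 6.84) and in 52 of 1568 resistant ones (3.32%, interval 2.49 to 4.33). At 1000 UMIs per cell the shares were 2.52% (interval 1.74 to 3.52) and 1.09% (interval 0.634 to 1.74). Many positive CD8 cells had a single UMI, 51.4% of the 72 sensitive ones and 26 of the 52 resistant ones. The sensitive cells reached 44 UMIs and 13 of them had 10 or more, while the resistant cells reached 16 UMIs and 2 had 10 or more. Summed over the gate, Penk stood at 64.6 CPM (interval 58.6 to 71.1) in sensitive and 15.97 CPM (interval 13.5 to 18.8) in resistant CD8 cells, a ratio of 4.05 (interval 3.35 to 4.92). Among 10911 genes measured in CD8 cells, 2.99% were at least 2-fold higher in the sensitive library. Within a library, CD4 cells exceeded CD8 cells 29.95-fold in the sensitive and 89.8-fold in the resistant one. The resistant value depended on the gate, since 22 Penk UMIs were left in resistant CD4 cells when Cd3 and Cd4 were called at 2 UMIs. T cells with UMIs of neither Cd4 nor Cd8 carried 158 Penk UMIs in 9 of 283 cells (3.18%) of the sensitive library and 9 UMIs in 3 of 110 cells (2.73%) of the resistant one.

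Fibroblasts were the other lineage with Penk, at a low level per cell and in many cells. Of 794 sensitive fibroblasts 129 were positive (16.2%, interval 13.7 to 19.0), and of 578 resistant fibroblasts 177 were (30.6%, interval 26.9 to 34.6). These cells were deep, with a median of 13280 and 13718 UMIs, and at 1000 UMIs per cell the shares came down to 5.11% (interval 3.67 to 6.89) and 6.76% (interval 4.85 to 9.12), which overlap. Summed levels were 50.8 CPM (interval 46.9 to 54.8) and 86.4 CPM (interval 80.7 to 92.4), so that fibroblasts of the sensitive library had 0.587 times the level of the resistant ones (interval 0.530 to 0.651), opposite in direction to CD8 cells. In fibroblasts 1.62% of 12508 genes were at least 2-fold lower in the sensitive library and 97.2% had a ratio at or above that of Penk. The sensitive fibroblasts had a median of 2 UMIs per positive cell and a highest cell of 74, and the resistant ones a median of 2 and a highest cell of 51. CD4 cells exceeded fibroblasts 38.1-fold in the sensitive and 16.6-fold in the resistant library, and 15.5-fold and 10.4-fold as a mean over cells. With Cd3 and Cd4 called at 2 UMIs the resistant excess was 2.77-fold. No fibroblast reached 100 Penk UMIs, and the 18 sensitive and 22 resistant fibroblasts with 10 or more held 57.7% and 52.8% of the gate's Penk UMIs.

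The markers of fibroblasts and T cells were counted beside Penk in each gate. Penk UMIs per 100 UMIs of Col1a1, Col1a2 and Col3a1 numbered 0.195 and 0.358 in sensitive and resistant fibroblasts, 118 and 62.1 in CD8 cells, and 5862 and 5640 in CD4 cells. No collagen UMI was found in 43 of the 45 sensitive and 6 of the 8 resistant Penk-positive CD4 cells, and the remaining ones had 1 each. The share of CD4 cells with a collagen UMI was 4.44% of Penk-positive and 17.2% of Penk-negative cells in the sensitive library, and 25% and 6.82% in the resistant one. In Cd4+ Cd8+ cells it was 18.75% and 9.78% of sensitive cells, and 25% and 7.5% of resistant cells, where the Penk-positive cells had at most 4 collagen UMIs. Cells without collagen held 97.4% of the Penk UMIs of sensitive and 56.0% of those of resistant CD4 cells, and 10.2% of those of resistant Cd4+ Cd8+ cells, whose top cell had 1 collagen UMI. The part of fibroblast RNA in these counts was not tested. Fibroblasts were gated with the collagen genes, so all of them had collagen. A Cd3 UMI was present in 26 of 177 resistant Penk-positive fibroblasts (14.7%) and in 25 of 401 Penk-negative ones (6.23%), and in 5.43% and 4.36% of the sensitive ones. Leaving out fibroblasts with a Cd3 UMI gave 51.1 and 82.6 CPM and a ratio of 0.618 (interval 0.555 to 0.690), below 1 as before.

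**Figure D3:**
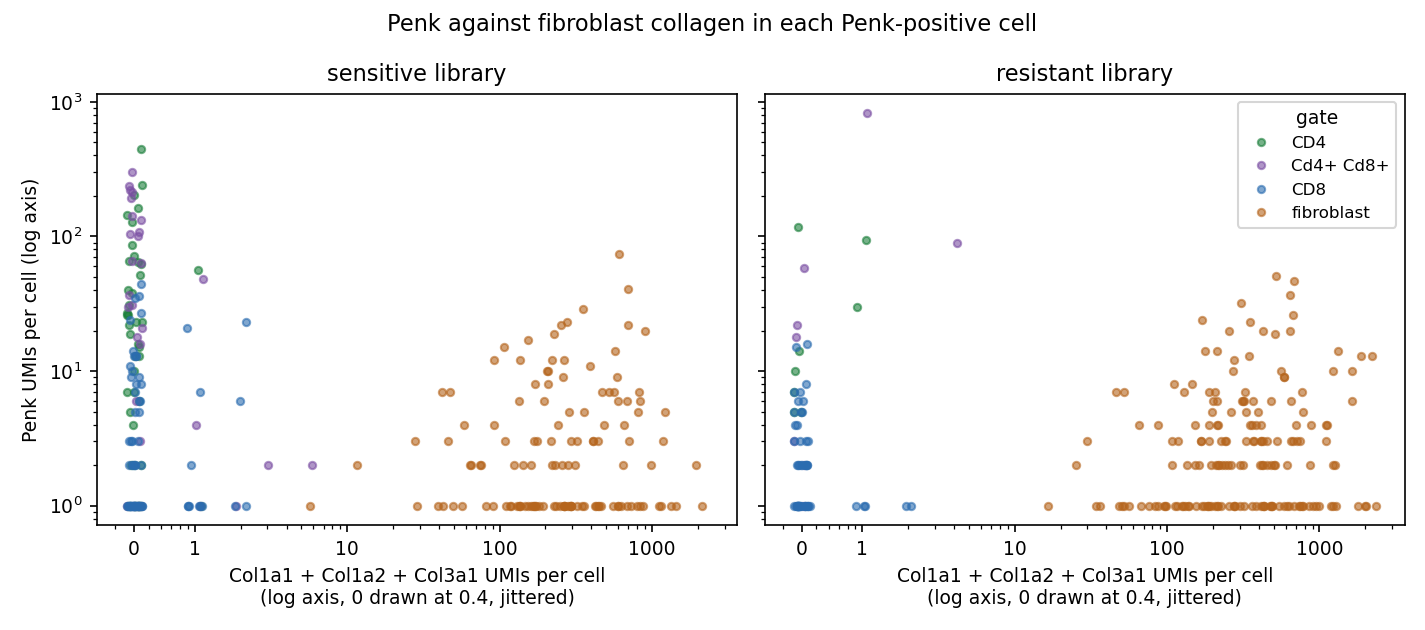
Penk UMIs against summed Col1a1, Col1a2 and Col3a1 UMIs in single Penk-positive CD4, Cd4+ Cd8+ and CD8 cells and fibroblasts of both T cell libraries, on log-scaled axes where 0 collagen UMIs are drawn left of 1. CD4 cells lie at 0 or 1 collagen UMI up to 446 Penk UMIs, and fibroblasts lie to the right with at most 74.

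Few Penk UMIs were found in the other lineages, of which cancer, endothelial and dendritic cells of the sensitive library were at least as deep as fibroblasts and neutrophils, NK cells, mast cells and macrophages were shallower. Macrophages or monocytes had 3 Penk UMIs in 1 of 190 sensitive cells (0.526%) at a median depth of 10962.5 UMIs. None of 177 resistant macrophages had any, which allows a share of cells with a Penk UMI of up to 1.69% at their depth and sets no limit on cells that express the gene. No Penk was found in 97 sensitive cancer cells, a limit of 3.09% at a median depth of 20725 UMIs, and 1 UMI was found in 128 resistant ones. Neutrophils gave 0 of 136 cells and 1 UMI in 167 cells. NK cells gave 0 of 40 and 0 of 25, limits of 7.5% and 12%, and the dendritic, endothelial and mast cells of both libraries, 6 to 35 cells per gate, gave none. Cells of no assigned lineage gave 8 of 209 with 76 UMIs and 16 of 148 with 103 UMIs. CD4 and CD8 cells of the sensitive library, at 22.3% and 5.47%, thus had Penk more often than macrophages did at 0.526%, although macrophages were deeper.

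Within CD4 cells of the sensitive library, Penk-positive cells more often had Il1r2, the interleukin-1 decoy receptor gene, and Il13, and had higher levels of cell cycle genes. The 45 positive cells were deeper than the 157 negative ones, with a median of 7152 against 3508 UMIs, so levels were compared in CPM and detection at 1000 UMIs per cell. Of 5770 genes with at least 20 UMIs, 184 (3.19%) were at least 2-fold higher and 416 (7.21%) at least 2-fold lower in Penk-positive cells, and the median gene had a ratio of 0.951. The number higher was 119 when the cell with most UMIs of each gene was left out, of which 80 were among the 184. All cells come from 1 library and none is a replicate, so the ratios describe these cells.

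**Figure D4:**
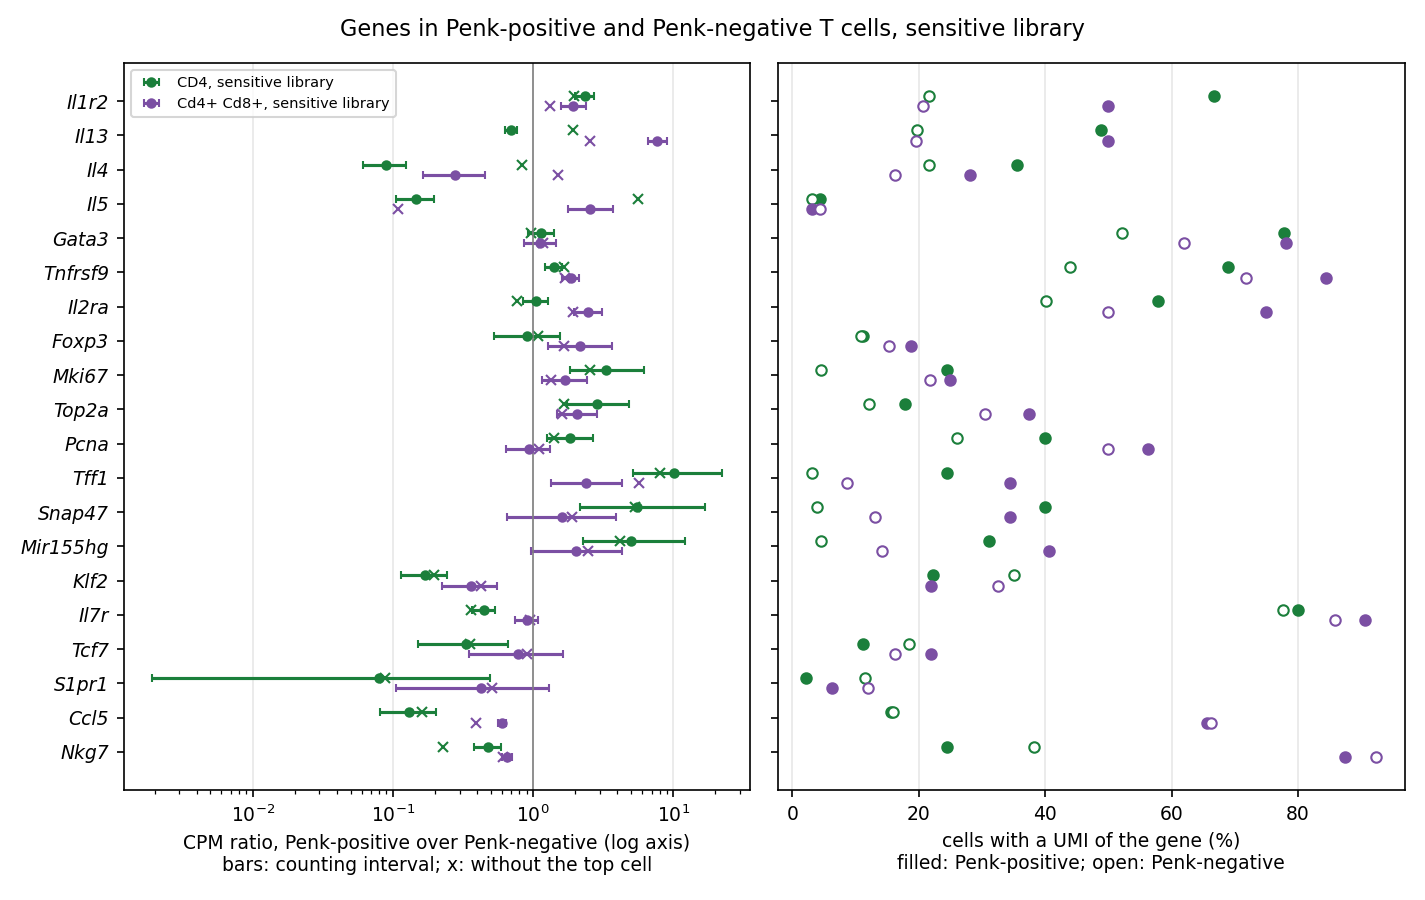
Left, ratio of the CPM in Penk-positive over Penk-negative cells (log-scaled axis) for 20 genes of the lists and the named genes, with counting intervals as bars and a cross for the value without the top cell; right, percentage of Penk-positive (filled) and Penk-negative (open) cells with a UMI of the gene. CD4 and Cd4+ Cd8+ cells of the sensitive library are shown; Il1r2 was detected in 66.7% against 21.7% of CD4 cells, and Il13 and Il5 ratios lie on the other side of 1 without the top cell.

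The 10 genes with the highest ratios rested on different numbers of cells, and unless said otherwise their detection is given at full depth. Tff1, a secreted trefoil peptide gene, had 61 UMIs in 11 of 45 positive and 10 UMIs in 5 of 157 negative cells, a ratio of 10.2 (interval 5.16 to 22.2) that was 7.99 without the top cell. Snap47, a SNARE protein gene, was detected in 18 of 45 positive and 6 of 157 negative cells, with a ratio of 5.55 (interval 2.15 to 16.9). At 1000 UMIs per cell Tff1 was in 11.1% of positive and 0.649% of negative cells, and Snap47 in 6.67% and 0.649%. Stmn1, a microtubule regulator high in dividing cells, had a ratio of 8.93 (interval 5.63 to 14.8). Cd70, the ligand of the costimulatory receptor CD27, had a ratio of 5.20 that was 2.95 without the cell holding 11 of its 25 UMIs. Mir155hg, the host transcript of the microRNA miR-155, had a ratio of 4.99 and the transferrin receptor gene Tfrc 4.07. Jpt2 had 4.16, but at 1000 UMIs per cell it was in none of the positive and 1.30% of the negative cells. Few cells carried most UMIs of the remaining ones. Cd74, the invariant chain of MHC class II, had a ratio of 19.1, but 3 cells held 599 of the 609 UMIs in positive cells. H2-Ab1, a class II chain, had a ratio of 7.99 and 2.58 without its top cell, and Rgcc, a cell cycle regulator, had 7.16 and 2.69.

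The same genes were looked up in cells that had not been used to choose them. In Cd4+ Cd8+ cells of the sensitive library, 32 positive against 92 negative, all 10 ratios were above 1, from 1.09 for Tfrc and 1.19 for H2-Ab1 up to 2.39 for Tff1 and 12.3 for Cd70. There 3.79% of 6150 genes were at least 2-fold higher and 4.73% at least 2-fold lower in Penk-positive cells, and of the 10 genes Cd70, Tff1, Stmn1 (2.04) and Mir155hg (2.04) were at 2-fold or more. Without the top cell of each gene Stmn1 was at 1.40, Cd70 at 6.13, Tff1 at 5.66 and Tfrc at 0.89, and as a mean over cells Cd74 was at 0.69 and H2-Ab1 at 0.97. The direction of Tfrc thus turned on a single cell, and that of Cd74 and H2-Ab1 on whether cells were weighted by depth. In CD8 cells of the sensitive library Tff1 had a ratio of 2.38 (interval 1.51 to 3.62) and Stmn1 1.61, while Cd74 had 0.12, Rgcc 0.46 and H2-Ab1 0.53. In resistant CD4 cells, with 8 positive cells, Tff1 had 7 UMIs in 1 positive cell and 0 in 44 negative cells, Stmn1 had a ratio of 1.09, and Cd74 had 0 UMIs in positive and 7 in negative cells. In resistant Cd4+ Cd8+ cells Tff1 had a ratio of 12.9 and H2-Ab1 2.05, while Cd74 had 0.37, Jpt2 0.98, and Mir155hg 0 UMIs in positive against 13 in negative cells. The resistant CD8 cells gave Tff1 34 UMIs in 8 of 52 positive and 161 UMIs in 61 of 1516 negative cells, a ratio of 4.79 (interval 3.21 to 6.97), 2.24 without the top cell. In the same cells Rgcc was at 0.33, Snap47 at 0.69, H2-Ab1 at 0.78 and Jpt2 at 0.94.

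Among the genes with the lowest ratios in sensitive CD4 cells, Klf2, a transcription factor of resting and recirculating T cells, had 32 UMIs in positive and 314 in negative cells, a ratio of 0.17 (interval 0.11 to 0.24). Klf2 was detected at 1000 UMIs per cell in 8.89% of positive and 22.1% of negative cells, and its ratio was 0.36 in Cd4+ Cd8+ cells and 0.18 in CD8 cells of the same library, but 1.07 in resistant CD8 cells. The interferon regulatory factor gene Irf7 had a ratio of 0.24, Klhl6 0.25 and Azi2 0.15. Il4 had the lowest ratio, 0.09, but 606 of its 675 UMIs in negative cells were in 1 cell, and without that cell the ratio was 0.84.

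Gene lists showed cell cycle genes high and naive genes low in sensitive Penk-positive CD4 cells. Of 8 cell cycle genes with enough UMIs, 7 were at least 2-fold higher and none was 2-fold lower, beside 3.19% and 7.21% of all genes. Their median ratio was 3.05 against 0.951 over all genes. Mki67, the Ki-67 antigen gene, had a ratio of 3.33 and was present in 24.4% of positive and 4.46% of negative cells (4.44% and 1.95% at 1000 UMIs per cell), and the replication helicase gene Mcm3 had 3.74. Without the top cell of each gene the median was 2.25 and 5 of the 8 were at 2-fold or more, beside 2.06% of all genes. In Cd4+ Cd8+ cells 3 of 10 cell cycle genes were 2-fold higher, beside 3.79% of all genes, with a median of 1.6. Resistant CD4 cells had none of 3 measured cell cycle genes at 2-fold, with a median of 1.36 (2 of 3 and 2.02 without top cells). Over all 1373 genes measured there, 7.14% were 2-fold higher and 8.08% 2-fold lower. Resistant Cd4+ Cd8+ cells had 1 of 9 at 2-fold higher and 1 at 2-fold lower, with a median of 1.09, near the shares over all 3869 genes of 6.18% and 12.9%. Of 7 naive genes none was 2-fold higher and 4 were 2-fold lower, beside 7.21% of all genes, with a median of 0.44. S1pr1, the receptor for egress from tissue, had 0.08, Tcf7 0.33 and Il7r 0.44. The naive list had a median of 0.90 in Cd4+ Cd8+ cells, with 2 of 7 genes 2-fold lower, beside 4.73% of all genes. None of the 3 naive genes measured in each resistant gate was 2-fold lower, with medians of 0.69 in CD4 and 1.14 in Cd4+ Cd8+ cells (1.39 and 1.21 without top cells).

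The type 2 helper genes Il13, Il5 and Il4 had summed levels that turned on single cells. Il13 was present in 48.9% of positive and 19.7% of negative sensitive CD4 cells, and in 22.2% and 13.0% at 1000 UMIs per cell, yet its level had a ratio of 0.70, which became 1.94 without the top cell. Il5, the eosinophil growth factor gene, went from 0.15 to 5.57 in the same way. Gata3, the transcription factor of type 2 cells, had a ratio of 1.14 and was seen in 77.8% and 52.2% of cells, and in 22.2% and 22.7% at equal depth, where Il4 was in 6.67% and 6.49%. The list's median over 11 genes was 0.73, with 1 gene 2-fold higher and 3 lower, and 0.97 without top cells. In Cd4+ Cd8+ cells 8 of its 10 genes were 2-fold higher, beside 3.79% of all genes, with a median of 3.99, which fell to 3 genes and 1.53 without top cells. Of 8 type 1 helper genes in CD4 cells none was 2-fold higher and 3 were 2-fold lower, beside the same 7.21%, the chemokine gene Ccl5 at 0.13, the chemokine receptor gene Cxcr3 at 0.25 and the cytotoxic granule gene Nkg7 at 0.47. Without top cells 1 of the 8 was 2-fold higher, the interferon gamma gene Ifng, which went from 1.01 to 2.02. The 12 immediate early genes had a median of 0.97 with none past 2-fold in either direction.

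Il1r2 was the 1 member of the 11 measured regulatory T cell genes at 2-fold or more, and the list's median was 0.93. Without top cells none of the 11 was. It had 399 UMIs in Penk-positive and 285 in Penk-negative sensitive CD4 cells, a ratio of 2.33 (1.96 without the top cell), and was detected in 66.7% against 21.7% of cells and in 44.4% against 10.4% at 1000 UMIs per cell. Its ratio was 1.93 in Cd4+ Cd8+ cells and 12.2 in CD8 cells of the sensitive library and 5.6 in resistant CD4 cells, and 1.33, 6.22 and 3.32 without the top cell. Read the other way, Penk was present in 46.9% (interval 34.3 to 59.8) of the 64 sensitive CD4 cells with Il1r2 and in 10.9% (interval 6.21 to 17.3) of the 138 without. At 1000 UMIs per cell these were 39.1% and 5.93%, and the Penk level was 3816 against 383 CPM. For Il13 the Penk-positive shares were 41.5% of 53 cells with it and 15.4% of the others, and cells with both genes, 35 in number, had 51.4% against 9.17% of the 120 cells with neither. These splits by Il1r2 and Il13 were chosen after the values were seen. Resistant CD4 cells had Penk in 3 of 6 cells with Il1r2 and in 5 of 46 without. For Il13 it was in 1 of 3 cells with it and 7 of 49 without, and the Penk level was lower in cells with Il13, at 409.5 against 1579 CPM.

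The V beta gene segments of the sensitive Penk-positive CD4 cells were mixed. Of the 45 Penk-positive cells 37 had a V beta UMI, and these used 13 segments, of which Trbv13-2, Trbv19 and Trbv20 were in 6 cells each (16.2%). The 130 Penk-negative cells with a V beta UMI used 16 segments. Trbv13-2 was in 18.5% of them, Trbv19 in 10.8% and Trbv20 in 6.15%. Among resistant CD4 cells Trbv13-2 was in 4 of the 7 positive cells with a V beta UMI (57.1%) and in 9 of 36 negative ones. Among resistant Cd4+ Cd8+ cells with a V beta UMI, Trbv31 was in 3 of 8 positive and 18 of 72 negative cells. Markers of other lineages were also counted in the 45 Penk-positive and 157 Penk-negative sensitive CD4 cells. The 8 B cell markers summed to 1342 UMIs in positive and 26 in negative cells, with 4 of the 8 at 0 in positive cells, Ms4a1, Pax5 and Blk among them, and the level per cell ran from 0 to 29920 CPM. Nearly all of it came from 1 cell of 44686 UMIs with 1302 Ighm UMIs, 250 Cd74 UMIs, 32 Cd3 UMIs and 2 Penk UMIs, which made up 10.6% of all UMIs of the positive cells. Without it 225 genes were at least 2-fold higher, 146 of them among the 184. The fibroblast markers gave 5 UMIs in positive cells, or 11.9 CPM against 57.2 CPM in negative ones, with Col1a1, Lum, Pdgfra and Pdgfrb at 0. The macrophage markers gave 8 UMIs in 7 cells and the dendritic cell markers 13 UMIs in 7 cells, with 4 of 8 markers at 0 in each list.

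Among sensitive fibroblasts, 260 of 11713 genes (2.22%) were at least 2-fold higher and 632 (5.4%) at least 2-fold lower in Penk-positive than in Penk-negative cells, with a median ratio of 0.989. Among resistant fibroblasts, 1.48% of 11161 genes were 2-fold higher and 2.25% 2-fold lower, with a median ratio of 1.02. The highest sensitive ratio was that of Scg3, which encodes the secretory granule protein secretogranin III, with 133 UMIs in 129 positive and 83 in 665 negative cells, a ratio of 8.37 (interval 6.32 to 11.2). Among resistant fibroblasts Scg3 had a ratio of 1.56 (interval 1.06 to 2.30). The hyaluronan synthase gene Has1 had 3.80 and 1.71, Tppp3 2.85 and 1.66, Ism1 3.00 and 1.88, Itga2b 3.23 and 1.41, Srpx 2.70 and 1.30 and Abca8a 3.02 and 1.12 in the sensitive and the resistant library. Adh1, an alcohol dehydrogenase gene, had 3.54 and 0.96, and the imprinted gene Peg3 had 2.92 and 0.89. Of these 9 genes named in the sensitive library, 7 were above 1 in the resistant one and none reached 2-fold there. All 5 genes with the lowest sensitive ratios were low in both: Hp (haptoglobin) 0.19 and 0.48, Slpi 0.23 and 0.52, Spp1 (osteopontin) 0.27 and 0.31, Car4 0.27 and 0.26, and Cxcl5 0.28 and 0.33.

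**Figure D5:**
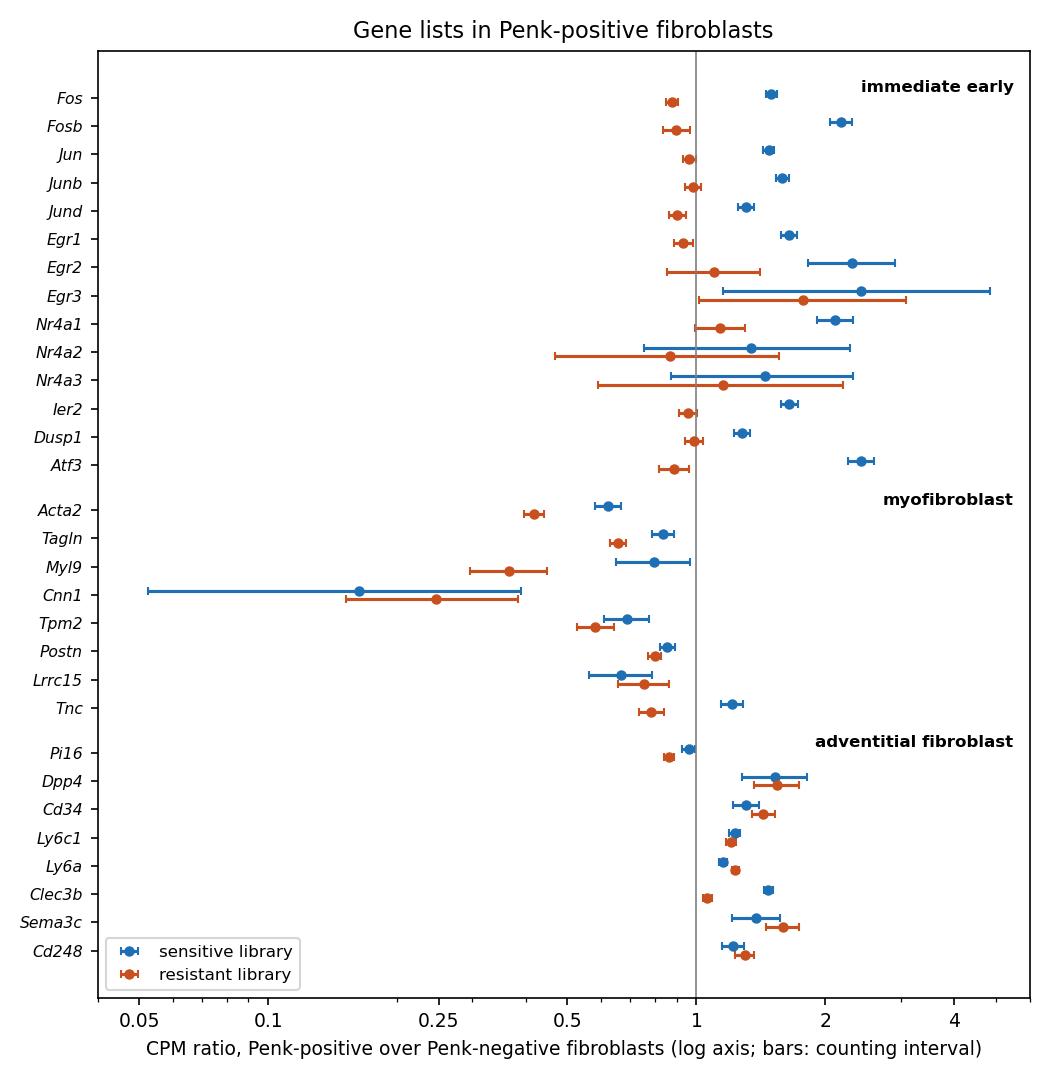
Ratio of the CPM in Penk-positive over Penk-negative fibroblasts (log-scaled axis) for each gene of the immediate early, myofibroblast and adventitial lists in the sensitive and resistant libraries, with counting intervals as bars. All 14 immediate early genes are above 1 among sensitive fibroblasts and 4 among resistant ones, and 7 of 8 adventitial genes are above 1 in each.

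No adventitial gene differed 2-fold between Penk-positive and Penk-negative fibroblasts, while some myofibroblast genes were 2-fold lower. Of 8 adventitial genes 7 were above 1 in each library, with medians of 1.27 and 1.26, among them Dpp4 at 1.53 and 1.54, Cd34 at 1.31 and 1.43 and Sema3c at 1.38 and 1.59. Pi16 itself was at 0.96 and 0.86. Of 8 myofibroblast genes 1 was at least 2-fold lower among sensitive fibroblasts and 3 among resistant ones, beside 5.4% and 2.25% of all genes, with medians of 0.74 and 0.62. The smooth muscle actin gene Acta2 had 0.62 and 0.42, Tagln 0.83 and 0.66, and the calponin gene Cnn1 0.16 and 0.25. The 14 immediate early genes were all above 1 in the sensitive library with a median of 1.62, including Atf3 at 2.42 and Fosb at 2.18, but 4 were above 1 in the resistant library, with a median of 0.96. Cell cycle genes had a median of 0.34 for sensitive and 1.78 for resistant fibroblasts, where it was 1.13 without top cells. The inflammatory list had medians of 1.00 and 1.10.

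By subset, Penk was present in 16.7% of 690 sensitive and 31.3% of 553 resistant fibroblasts with Pi16, at 56.2 and 88.6 CPM, and in 13.5% of 104 and 4 of 25 without it, at 27.5 and 55.9 CPM. Fibroblasts with both Acta2 and Tagln, the deepest at a median of 27735 UMIs in the sensitive library, had Penk in 11.0% of 109 sensitive and 25.6% of 78 resistant cells, at 20.2 and 44.9 CPM. All other fibroblasts, those lacking at least 1 of these genes, had 61.7 and 103 CPM. In each of these subsets the resistant level was the higher one. At 1000 UMIs per cell the Penk-positive shares were 5.26% of sensitive and 6.70% of resistant fibroblasts with Pi16 (intervals 3.71 to 7.21 and 4.76 to 9.12). They were 1.84% and 2.56% of those with both Acta2 and Tagln, or 2 cells each, and 5.64% and 7.41% of the others.

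Over the 18 combinations of gate and library with at least 30 cells, the genes whose log2 level followed that of Penk most closely were Bace2 (Pearson r 0.936), Tnfsf11 (0.915), Sdf4 (0.906), Neb (0.899), Ttc39c (0.890), Neu3 (0.889), Hsd17b7 (0.886), Arnt2 (0.879), Tff1 (0.876) and Cd4 (0.874), out of 12528 genes. The points share libraries and depth, and Cd4 was used to make the gates, so these values are a description of likeness only. Bace2, a protease gene, had 55.3 and 25.4 CPM in CD4 cells, 1.99 and 1.64 in CD8 cells and 16.7 and 8.38 in fibroblasts of the sensitive and resistant libraries. Tnfsf11, the RANK ligand gene, had 237 and 310 CPM in CD4 cells and 23.8 and 3.73 in fibroblasts.

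Of the 4 opioid precursor genes, Penk and Pomc had at least 20 UMIs in a library. Pdyn (prodynorphin) had 0 UMIs in both libraries and Pnoc (pronociceptin) had 2 and 1. Pomc, the precursor of beta-endorphin, had 102 sensitive and 74 resistant UMIs, or 3.41 and 2.67 CPM. The classic receptors were near the counting floor: Oprd1 (delta) had 0 and 1 UMIs, Oprm1 (mu) 4 and 6, Oprk1 (kappa) 0 in both and Oprl1 0 and 1. Low expression of these receptors was not detectable at this depth. Of the other enkephalin-binding receptors, Ogfr had 1600 and 1283 UMIs spread over lineages, at 42.0 and 50.8 CPM in CD4 cells. Ackr3, an atypical chemokine receptor that also binds opioid peptides, had 4814 and 3527 UMIs, mostly in fibroblasts at 349 and 336 CPM, where 77.2% and 83.0% of cells had it.

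The enzymes that act on the precursor were split by lineage. The neuroendocrine convertase genes Pcsk1 and Pcsk2 had 12 and 2 UMIs and 4 and 4 UMIs in the sensitive and resistant libraries, 5 of the 12 Pcsk1 UMIs in sensitive CD4 cells. Furin, the ubiquitous convertase, had 77.6 and 91.5 CPM in CD4 cells and 51.2 and 37.8 in fibroblasts. Pcsk5 was found in fibroblasts at 330 and 208 CPM, with 1 and 0 UMIs in CD4 cells, and Pcsk6 in fibroblasts at 34.7 and 59.6 CPM. The carboxypeptidase gene Cpe had 0 UMIs in CD4 cells of both libraries, 16 and 25 UMIs in fibroblasts and 209 and 200 CPM in cancer cells, whereas its relative Cpd had 52.7 and 71.2 CPM in CD4 cells. Ctsl, the cathepsin L gene, had 9.82 and 10.2 CPM in CD4 cells against 1638 and 1337 in fibroblasts and 2768 and 2031 in macrophages. Pam, the peptide amidating enzyme gene, had 1 and 0 UMIs in CD4 cells and 212 and 270 CPM in fibroblasts.

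Of the degrading peptidases, Mme, or neprilysin, had 78 and 24 UMIs, 74 and 22 of them in fibroblasts. The aminopeptidase N gene Anpep had 90.3 and 77.8 CPM in fibroblasts, 108 and 81.6 in macrophages and at most 1 UMI in CD4 cells. Ace, the angiotensin-converting enzyme gene, had 312 and 293 CPM in fibroblasts and 0 UMIs in CD4 cells. The remaining 5 genes, Dpp3, Npepps, Rnpep, Ece1 and Lap3, had from 790 to 2790 UMIs per library.

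In the whole-tumor libraries, which are shallower and have few fibroblasts or CD4 cells, Penk was almost absent. The control-labelled library of 488 cells had 3 UMIs in 1 cell of no assigned lineage. The sensitive-labelled library had none in 269 cells, which allows a share of cells with a UMI of up to 1.12%. The resistant-labelled library had 8 UMIs in 3 of 263 cells, 7 of them in 2 of 5 fibroblasts and 1 in a macrophage. No T cell had Penk, but these libraries held 10, 1 and 1 CD4 cells, too few to compare with the share in the T cell libraries.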

How the data were processed

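Penk was studied in 2 T cell and 3 whole-tumor libraries, 1 per group. The authors deposited unnormalized UMI counts per gene and cell from 10x 3′ libraries, made with Cell Ranger 6.0.0 (T cells) and 3.0.1 (whole tumor) on mm10 per the labels and methods. The genes, lists and splits were chosen with earlier results of these data known.

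Barcodes with under 500 genes or over 10% mitochondrial UMIs were left out (whole tumor 200 and 20%). In the T cell libraries, the barcodes with the highest Scrublet scores (scanpy 1.11.5), 0.8% per 1000 barcodes, were removed as putative doublets, 112 and 159 cells. A cell took the lineage with at least 3 of 8 markers and 2 more than the next. NK cells had no Cd3 UMI and at least 2 NK markers. CD4 cells had Cd4 without Cd8a or Cd8b1, and CD8 cells the reverse. Foxp3-positive T cells had Foxp3 without Cd8a or Cd8b1. Shares have exact Clopper-Pearson intervals and CPM ratios exact conditional binomial intervals. For the limit of a share, a count of 0 was read as at most 3 counts. In gene ratios a sum of 0 was set to 3 counts, also in list medians and in values without top cells. With few UMIs this can turn the direction. Cd74 in resistant CD4 cells, at 0 UMIs in positive and 7 in negative cells, had a ratio of 1.49. PCR duplicates are removed by UMIs, but the intervals cover counting error only. Penk-positive and Penk-negative cells were compared by CPM (counts per 1000000 UMIs) of summed cells for genes with at least 20 UMIs. Named genes were the 10 highest and 5 lowest ratios among genes detected in at least 20% of the Penk-positive or Penk-negative cells, leaving out receptor segments, ribosomal, mitochondrial and unnamed genes, together with the 10 genes most like Penk (log2 of CPM plus 10, at least 100 UMIs) and the opioid lists. A few genes that these rules name are not reported here. No test was run, because each group had 1 library. Scripts were tested on simulated data and used Python 3.11.15, numpy 2.4.6, scipy 1.17.1, pandas 2.3.3 and matplotlib 3.10.9. Gene positions are from GENCODE on GRCm38.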

Additional observations from a re-analysis of the deposited data

Results flagged for a closer look

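The Penk level, sensitive over resistant, was 4.05 in CD8 T cells and 0.587 in fibroblasts, in opposite directions. The difference between the lineages was not tested, since each group had 1 library.

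Barcodes left out by the filters also held Penk, 86 UMIs in 14 of 501 sensitive barcodes and 435 UMIs in 58 of 3025 resistant ones. Of the resistant UMIs, 360 were in 37 of the 1618 barcodes left out for their mitochondrial share.

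The resistant-labelled whole tumor held 8 Penk UMIs in 3 cells, against 3 UMIs in 1 cell of the control-labelled library.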

How the results depend on the processing

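Of 135 alternative values, no ratio changed its direction, and the shares, means and counts among them have none. Of those for the main comparisons, 69 stayed within the counting interval or within 1.5 times the count and 26 moved. The Penk-positive share of sensitive CD4 cells was 16.6%, 22.6% with Cd3 and Cd4 called at 2 UMIs and 22.7% at 2000 UMIs per cell. That call left the lineage of each cell as it was. The CD4 ratio of 1.35 between libraries became 2.12 with no mitochondrial limit. It was 10.0 with Cd3 and Cd4 called at 2 UMIs (22 resistant Penk UMIs left), 1.14 as a mean over cells and 1.76 without the top cells. With cells of more Cd4 than Cd8 UMIs added, a choice made after seeing the data, it was 2.01. The fibroblast ratio became 0.764 as a mean over cells. The ratio over all cells became 2.53 as a mean over cells, 3.00 without top cells and 2.001 with the median gene ratio set to 1. The CD8 ratio, a comparison added after seeing the data, kept between 3.69 and 4.23 under its 8 alternatives. These 8 are counted among the 69. CD4 over fibroblasts became 47.3 at 2 UMIs, 15.5 as a mean over cells and 34.7 without top cells in the sensitive library, and 10.8 with no mitochondrial limit, 2.77, 10.4 and 10.9 in the resistant one. The 184 genes of CD4 cells became 60 at a minimum of 50 UMIs, 788 at 5 UMIs, 325 as a mean over cells and 119 without top cells. The 260 genes of fibroblasts became 121, 1017 and 433 under the first 3 of these and 1118 with Penk called after thinning. Of the 184 genes of CD4 cells, 90 were among the 143 found with Cd3 and Cd4 called at 2 UMIs. With Penk called after thinning, 110 of the 184 were among 256 genes. The cause of these shifts was not tested. With 52 CD4 cells and 8 positive ones, the resistant library limits the CD4 comparisons that use it. No paired analysis was possible because each group had 1 library.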
